A study of Mus musculus with 6 samples.

Results

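The 6 long non-coding RNAs Malat1, Neat1, Mir17hg, Kcnq1ot1, Dleu2 and Pvt1 were followed in a mouse leukaemia of the T lineage (T-ALL) after panobinostat, which inhibits histone deacetylases. They were taken by name as nuclear or cancer-linked RNAs, and all 6 had a row among the 13185 gene rows of the deposited table. The panobinostat group (3 libraries) was treated at 25 nM for 2 h, and the untreated group (3 libraries) is its control. The labels call the cells Notch1 T-ALL and oncogenic lymphocytes, with no strain, animal, age or clone. Every culture, treated or not, was grown on bound anti-CD3 antibody at 2.5 ug/mL and IL-2 at 100 U/mL, so both groups were stimulated cells. RNA was read from its polyadenylated end with the QuantSeq kit, and levels are log2 CPM (read counts scaled to a common library total, on a log2 scale). Nothing in the labels states that the libraries are separate cultures or animals, so p-values measure the spread between these libraries, which may be technical.

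Long non-coding RNAs act as RNA or serve as precursors of other RNAs. Mir17hg and Dleu2 are host transcripts: the nuclear enzyme Drosha cuts microRNA hairpins out of them, and Dicer trims the hairpins to microRNAs that lower the output of target messages. Malat1 lies in nuclear speckles beside splicing factors, and Neat1 is the scaffold on which paraspeckles form. Kcnq1ot1 is an imprinted antisense RNA that silences neighbouring genes on the paternal chromosome, and Pvt1 is the neighbour of the oncogene Myc.

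From ties among low values the libraries were estimated to hold between 5990000 and 7720000 reads, or 5.99 to 7.72 reads per CPM. On the second principal component (14.8% of the variance) the panobinostat libraries lay between -10.1 and 11, against -40, 22 and 6.96 for untreated libraries 1 to 3, so untreated library 1 stood apart. Values of the 6 lncRNAs are therefore given with and without it. All 14 T cell markers were measured, of which 2 rose, 5 fell and 7 did not pass (median log2 fold change -0.06). Lck, Cd5, Cd3d and Cd3e were among those that fell, while Rag1 (0.54) and Notch1 (0.34) were called as higher. Cd3g (0.07), Cd247 (-0.04) and Cd8a (0.06) were among those that did not pass. The 14 markers summed to 1440 to 1470 CPM in panobinostat libraries and 1770 to 1890 CPM in untreated libraries. Of 18 markers of B, myeloid, erythroid, stromal and endothelial cells 16 were measured. Pax5 and the only stromal marker listed, Col1a1, had no row. None of the 16 was at 0 in any library. Their summed level was 5740 to 5930 CPM in panobinostat libraries and 6140 to 6790 CPM in untreated libraries. Most of this sum came from haemoglobin genes, Hba-a1 alone lying at 10.87 to 11.50 log2 CPM. Among these 16 genes 1 rose, 8 fell and 7 did not pass (median log2 fold change -0.38). Lyz2, Mpo, S100a8 and Cd79b were among those that fell. Other myeloid and B cell markers did not pass, namely Elane (-0.10), S100a9 (-0.14), Adgre1 (0.54), Cd79a (-0.54) and Ms4a1 (0.09). The haemoglobin genes Hba-a1, Hbb-bs and Hbb-bt, picked out after their values were seen, had log2 fold changes of -0.37, 0.35 and 0.18. The calls of Hba-a1 as lower and Hbb-bs as higher ended in 5 and 4 of the 6 fits without 1 library (-0.39 to -0.28 and 0.35 to 0.37 in these). The part of these other cells in the results below was not tested, and in bulk samples fewer cells of a type and less RNA per cell cannot be told apart.

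All 6 lncRNAs passed the filter on low values. At an adjusted p below 0.05 (limma across 12554 genes) Malat1 rose, Mir17hg fell and the other 4 did not pass. Across all tested genes 38.3% were called, 19.2% as higher and 19% as lower in panobinostat libraries. Counts of called genes in each list are to be read beside these shares. The panobinostat and untreated libraries did not overlap for Malat1 and Mir17hg, which are 2 of the 6, against 51.4% of tested genes (25.7% in each direction). Without untreated library 1 the number of lncRNAs called was 4, with Neat1 and Kcnq1ot1 also higher. That library held the highest untreated value of both, so leaving it out raises their log2 fold change. Leaving out any other library gave 1 or 2 called lncRNAs. The number of genes called in the table was 5233 without untreated library 1, against 4806 with all libraries. The choice of these 6 genes was made with results of these data known, so the count is a description.

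**Figure D1:**
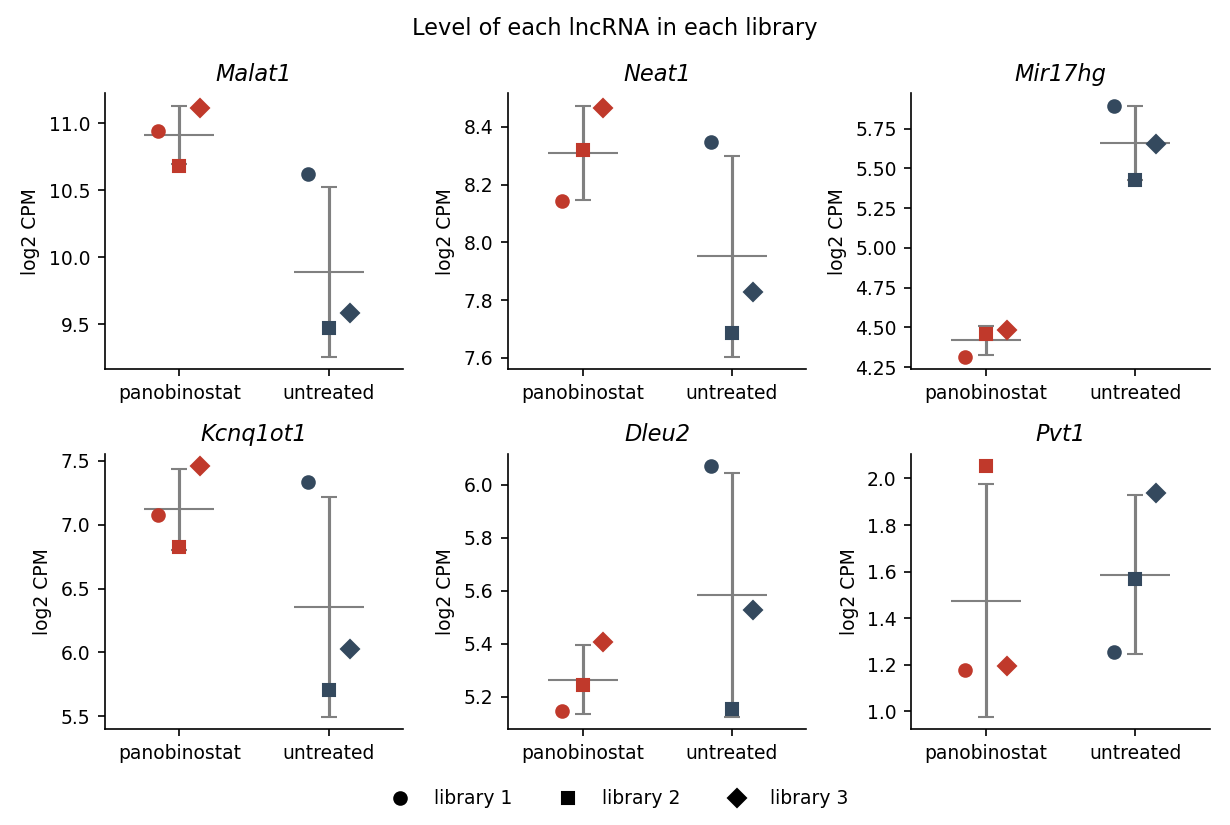
Level in log2 CPM (vertical axis) of each lncRNA in the 3 panobinostat libraries (left, red) and the 3 untreated libraries (right, dark), with the marker shape giving the library number. Grey bars show the mean and SD of 3 libraries. Each panel has its own axis range. Untreated library 1 is the highest untreated value in 5 of the 6 panels, and all 3 panobinostat values lie apart from all 3 untreated values for Malat1 and Mir17hg.

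Mir17hg was the lncRNA with the smallest adjusted p. It hosts the cluster of miR-17 to miR-92a, which is transcribed under Myc and E2F factors, is known as an oncogenic cluster in lymphoid tumours and lowers the pro-apoptotic factor BIM. The gene (ENSMUSG00000089726.2) was placed on chromosome 14 at 115042879 to 115046727, plus strand (GRCm38, GENCODE M21), with 1 annotated transcript of 3536 bases and 6 microRNA hairpins between 115043671 and 115044506. The cluster's main mature microRNAs are shown because they are what the measured transcript carries. They fall into 4 groups by seed (bases 2 to 8, in capitals), with RefSeq sequences on GRCm38.p6:
mmu-miR-17-5p: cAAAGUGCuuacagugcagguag
mmu-miR-20a-5p: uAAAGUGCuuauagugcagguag
mmu-miR-18a-5p: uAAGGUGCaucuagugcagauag
mmu-miR-19a-3p: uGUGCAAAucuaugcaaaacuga
mmu-miR-19b-3p: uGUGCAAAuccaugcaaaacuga
mmu-miR-92a-3p: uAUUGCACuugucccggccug

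Mir17hg stood at 4.32, 4.46 and 4.48 log2 CPM in panobinostat libraries 1 to 3, against 5.89, 5.43 and 5.66 in untreated libraries 1 to 3. Every panobinostat library lay below every untreated one, and the panobinostat libraries differed less among themselves than the untreated ones. The means were 4.42 ± 0.09 with panobinostat and 5.66 ± 0.23 untreated (SD, n = 3 each). It changed by -1.24 on the log2 scale (SE 0.13, 95% interval -1.55 to -0.93, limma adjusted p = 0.000735), which leaves 0.424 of the untreated level. With untreated library 1 left out this was -1.12 (adjusted p = 0.000707). The reads came from the polyadenylated end, which for Mir17hg lies downstream of the last hairpin, so mature microRNAs were not measured. The last 60 bases of the transcript, at chr14:115046668-115046727, are shown because the assay reads this end. They hold the polyadenylation signal AATAAA (capitals).
Mir17hg end: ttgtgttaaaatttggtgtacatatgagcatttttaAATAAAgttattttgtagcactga

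The machinery that makes and uses microRNAs was measured for 18 of 20 listed genes, of which 2 rose and 6 fell. Its median log2 fold change was -0.08, beside -0.0052 for all tested genes. The shares called over all tested genes were 19.2% as higher and 19% as lower. Ran (0.64) and Ago3 (0.49) rose, and 10 genes did not pass, Xpo5 (-0.04), Prkra (0.26) and Ddx5 (0.10) among them. The 6 that fell included the genes for both cutting enzymes and a partner of each. Drosha, which releases hairpins and was picked out after its values were seen, was at 6.28, 6.24 and 6.02 log2 CPM with panobinostat against 6.63, 6.98 and 6.67 untreated (log2 fold change -0.58, SE 0.12, adjusted p = 0.00802). Its cofactor gene Dgcr8 changed by -0.53 (SE 0.09, adjusted p = 0.00299). Dicer1 was at 5.43, 5.56 and 5.53 log2 CPM with panobinostat against 6.11, 6.60 and 6.26 untreated (log2 fold change -0.81, SE 0.13, adjusted p = 0.00294). Tarbp2, which encodes a Dicer partner, changed by -1.29 (SE 0.21, adjusted p = 0.00309). The 3' exonuclease gene Dis3l2 changed by -0.70 (SE 0.13, adjusted p = 0.0046).

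Genes reported elsewhere as targets of these microRNAs went both ways. Of 17 measured, 5 rose and 3 fell, with a median log2 fold change of -0.10. The largest rise in this list was Cdkn1a, an inhibitor of cyclin-dependent kinases (1.29, SE 0.14, adjusted p = 0.00066), and Stat3 also rose (0.98, SE 0.11). Bcl2l11, which encodes BIM, was called as higher too (0.35, SE 0.08, adjusted p = 0.013) and was picked out after its value was seen. Its call did not hold without panobinostat library 3 (0.33) or untreated library 3 (0.32). Falls were those of E2f3 (-0.81, SE 0.12), E2f2 (-0.73, SE 0.11) and the hypoxia factor gene Hif1a (-0.72, SE 0.10). E2f2 and E2f3 also encode activators reported upstream of the cluster. Among 12 genes reported to act on these host genes 9 were measured, of which 2 rose and 4 fell. The heat shock factor gene Hsf1 rose (0.94, SE 0.19), as did Notch1 (0.34, SE 0.10, adjusted p = 0.0272). The Notch1 call did not hold when panobinostat library 2 (0.34), panobinostat library 3 (0.30) or untreated library 2 (0.25) was left out.

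Dleu2 hosts miR-15a and miR-16-1, which lower BCL2 and D cyclins, and in humans the region is deleted in chronic lymphocytic leukaemia. The gene (ENSMUSG00000097589.9) lies on chromosome 14 at 61602839 to 61682373, minus strand, with 15 annotated transcripts. Both of its microRNAs share 1 seed (capitals), shown beside those of Mir17hg because none of the 4 seeds above is the same:
mmu-miR-15a-5p: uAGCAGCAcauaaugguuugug
mmu-miR-16-5p: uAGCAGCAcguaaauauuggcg

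Dleu2 was at 5.14, 5.24 and 5.40 log2 CPM in panobinostat libraries 1 to 3, against 6.07, 5.15 and 5.53 in untreated libraries 1 to 3. The groups overlapped, since untreated library 2 lay within the panobinostat range and untreated library 1 above all others. The means were 5.26 ± 0.13 with panobinostat and 5.58 ± 0.46 untreated (SD, n = 3 each). Its log2 fold change of -0.32 (SE 0.21, 95% interval -0.81 to 0.18) did not pass (limma adjusted p = 0.271). Leaving out untreated library 1 gave -0.08 (adjusted p = 0.689). The difference between the 2 host genes was not tested.

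Of 13 measured genes reported as targets of miR-15a and miR-16, 0 rose and 3 fell, with a median of -0.23. Over all tested genes 19.2% were called as higher and 19% as lower. The 3 falls were those of the transcription factor gene Myb (-0.77, SE 0.07, adjusted p = 0.000386), the survival gene Bcl2 (-0.58, SE 0.10) and the G1 kinase gene Cdk6 (-0.41, SE 0.09). The cyclin gene Ccnd3 was at -0.34 (SE 0.12, adjusted p = 0.0577) and passed without panobinostat library 2 (-0.44) or untreated library 1 (-0.39). Inside Dleu2 on the same strand lie the predicted genes Gm37472, Gm37420 and Gm27010, which were picked out after their values were seen. None passed, with log2 fold changes of -0.45, -0.82 and -0.56 (limma adjusted p = 0.432, 0.0707 and 0.0766), and without untreated library 1 that of Gm37472 was 0.059. Gm27010 passed as lower without untreated library 2 (-0.76). Trim13, a ubiquitin ligase gene on the opposite strand, overlaps the end of Dleu2 by 3108 bases. It was called as higher (0.40, SE 0.13, adjusted p = 0.0461), but not in 4 of the 6 fits without 1 library (0.28 to 0.42 in these), nor with the library number as a block (adjusted p = 0.0882). The strand setting of the authors' counting is not given in the sources used here, so reads of overlapping genes cannot be told apart.

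Malat1 rose. It is an abundant RNA kept in the nucleus, where it gathers at speckles, and it is known for its link to metastasis in human tumours. The gene (ENSMUSG00000092341.3) lies on chromosome 19 at 5795690 to 5802672, minus strand. Its level was 10.94, 10.68 and 11.11 log2 CPM in panobinostat libraries 1 to 3, against 10.62, 9.47 and 9.58 in untreated libraries 1 to 3. In linear units these were 1970, 1640 and 2210 CPM with panobinostat and 1570, 710 and 766 CPM untreated. The groups did not overlap, but untreated library 1 lay only 0.06 on the log2 scale below the lowest panobinostat library. The means were 10.91 ± 0.22 with panobinostat and 9.89 ± 0.63 untreated (SD, n = 3 each).

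The log2 fold change of Malat1 was 1.02 (SE 0.28, 95% interval 0.37 to 1.68, limma adjusted p = 0.0245), or 2.03-fold. Leaving out each library in turn ended the call 4 times of 6. The adjusted p was then 0.0649 for panobinostat library 1, 0.0782 for panobinostat library 3 (log2 fold change 0.92), 0.071 for untreated library 2 (0.81) and 0.0868 for untreated library 3 (0.87). The call also ended with a robust spread (adjusted p = 0.103) or no mean-variance trend (adjusted p = 0.0565). Without untreated library 1 the value was 1.38 (95% interval 1.10 to 1.67, adjusted p = 0.000426). Each of these values was positive.

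Neat1 lies 42.8 kb upstream of Malat1 in the direction of transcription, counted between start sites, on the same strand of chromosome 19 (ENSMUSG00000092274.3, 5824708 to 5845478). It is made as a short polyadenylated form and a long form that builds paraspeckles. Its level was 8.14, 8.32 and 8.47 log2 CPM in panobinostat libraries 1 to 3, against 8.35, 7.68 and 7.83 in untreated libraries 1 to 3. The groups overlapped through untreated library 1 alone, the other untreated values lying below all panobinostat values. The means were 8.31 ± 0.16 with panobinostat and 7.95 ± 0.35 untreated (SD, n = 3 each). Its log2 fold change of 0.36 (SE 0.17, 95% interval -0.04 to 0.75) did not pass (limma adjusted p = 0.135). It was 0.55 and passed without untreated library 1 (95% interval 0.31 to 0.80, adjusted p = 0.00585). Without untreated library 2 it was 0.22 and did not pass (limma adjusted p = 0.341).

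The ends of Malat1 and Neat1 bear on what an assay primed on poly(A) can see. The mature Malat1 and the long Neat1 form are known to end not in a poly(A) tail but in an A-rich tract folded into a triple helix, after a tRNA-like RNA is cut off. The last 60 bases of the annotated transcripts, and the A-rich tract inside the annotated Malat1 transcript, are shown with the signal AATAAA or the tract AAAAAGCAAAA in capitals (GENCODE M21, GRCm38, minus strand). Their positions are chr19:5795690-5795749, chr19:5795982-5796041, chr19:5842307-5842366 and chr19:5824708-5824767, in the order printed.
Malat1 annotated end: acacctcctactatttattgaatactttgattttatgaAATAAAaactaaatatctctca
Malat1 internal tract: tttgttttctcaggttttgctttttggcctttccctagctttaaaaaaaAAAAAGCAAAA
Neat1 short form end: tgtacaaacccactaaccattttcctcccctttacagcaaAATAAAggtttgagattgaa
Neat1 long form end: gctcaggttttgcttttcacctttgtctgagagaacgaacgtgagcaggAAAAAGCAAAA

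The Malat1 tract ends 292 bases before the annotated end. Searched on the transcript strand, AATAAA was in the last 60 bases of 27.2% of annotated transcripts at least that long. The tract AAAAAGCAAAA was taken from the end of the long Neat1 form, so its match there was fixed in advance. It stood at the very end of 9 of 141767 annotated transcripts and anywhere in 618 of them. The table gives 1 value per gene, so it cannot be told from it whether reads came from a poly(A) tail or from priming on the A-rich tract, nor which Neat1 form they came from.

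Proteins of both nuclear bodies were measured for all listed genes. Of 29 paraspeckle protein genes 4 rose and 6 fell (median -0.08). Rbm14, which encodes a protein needed for paraspeckle assembly, changed by -0.53 (SE 0.09, adjusted p = 0.00382) and the chromatin remodeller gene Smarca4 by -0.75 (SE 0.07). Cpsf7, a cleavage factor subunit gene, changed by -0.83 (SE 0.12), and Ss18l1 rose (1.12, SE 0.15). Of 20 genes for speckle proteins and Malat1 end processing 3 rose and 3 fell (median -0.04). The speckle matrix gene Srrm1 rose (0.60, SE 0.11), and the splicing factor gene U2af2 changed by -0.48 (SE 0.08, adjusted p = 0.00309). Mettl16, whose protein binds the Malat1 triple helix, changed by -0.34 (SE 0.09, adjusted p = 0.0165), a call lost without panobinostat library 3 (-0.31). The splicing factor gene Srsf6 changed by -0.48 (SE 0.12, adjusted p = 0.0178), which was not called when panobinostat library 2 (-0.45), panobinostat library 3 (-0.50) or untreated library 3 (-0.49) was left out.

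Kcnq1ot1 is transcribed antisense to Kcnq1 from the maternally methylated control region of an imprinted domain. The gene (ENSMUSG00000101609.2) spans chromosome 7 from 143203458 to 143296549, minus strand, as a single unspliced transcript of 93092 bases. Its level was 7.07, 6.83 and 7.46 log2 CPM in panobinostat libraries 1 to 3, against 7.34, 5.71 and 6.03 in untreated libraries 1 to 3. Untreated library 1 lay inside the panobinostat range, and the other untreated libraries lay below it. The means were 7.12 ± 0.32 with panobinostat and 6.36 ± 0.86 untreated (SD, n = 3 each). Its log2 fold change of 0.76 (SE 0.39, 95% interval -0.13 to 1.65) did not pass (limma adjusted p = 0.155). It was 1.25 and passed without untreated library 1 (95% interval 0.81 to 1.69, adjusted p = 0.00239). Without untreated library 2 it was 0.44 and did not pass (limma adjusted p = 0.400). The annotated transcript holds 8 runs of 12 or more A, and its end, at chr7:143203458-143203517, carries AATAAA (capitals) as follows.
Kcnq1ot1 end: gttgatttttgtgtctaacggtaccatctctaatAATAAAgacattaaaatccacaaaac

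Of 12 listed genes around Kcnq1ot1 6 were tested, of which 0 rose and 3 fell (median -0.47). The shares over all tested genes were 19.2% called as higher and 19% as lower. Phlda2 was in the table but under the filter, and Kcnq1 itself is not analysed here. Nap1l4, a histone chaperone gene, was at 7.67, 7.92 and 7.65 log2 CPM with panobinostat against 8.27, 8.39 and 8.33 untreated (log2 fold change -0.58, SE 0.09, adjusted p = 0.00265). The tetraspanin gene Tspan32 (-0.78, SE 0.12) and the lipid-binding protein gene Osbpl5 (-1.20, SE 0.21) were also called as lower. Cdkn1c, a CDK inhibitor gene silenced by Kcnq1ot1 on the paternal chromosome, was near the lower limit of the table at -0.79, 0.80 and 0.18 log2 CPM with panobinostat and 0.76, -0.43 and 0.02 untreated. Its groups overlapped, and its log2 fold change of -0.06 had a 95% interval of -1.30 to 1.19. The table does not separate parental alleles, so imprinted expression was not measured.

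Untreated library 1 lay above the mean of untreated libraries 2 and 3 by 1.09 (log2) for Malat1, 0.59 for Neat1, 1.47 for Kcnq1ot1, 0.73 for Dleu2 and 0.35 for Mir17hg, while for Pvt1 the difference was -0.50. For all tested genes this difference had a median of -0.01 with -0.69 and 0.81 as its 5th and 95th percentiles. The share of tested genes with a smaller value was 97.6% for Malat1, 91.4% for Neat1, 99.0% for Kcnq1ot1, 94.0% for Dleu2, 82.8% for Mir17hg and 9.14% for Pvt1. Its part in the results of these RNAs is given by the values without that library.

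**Figure D2:**
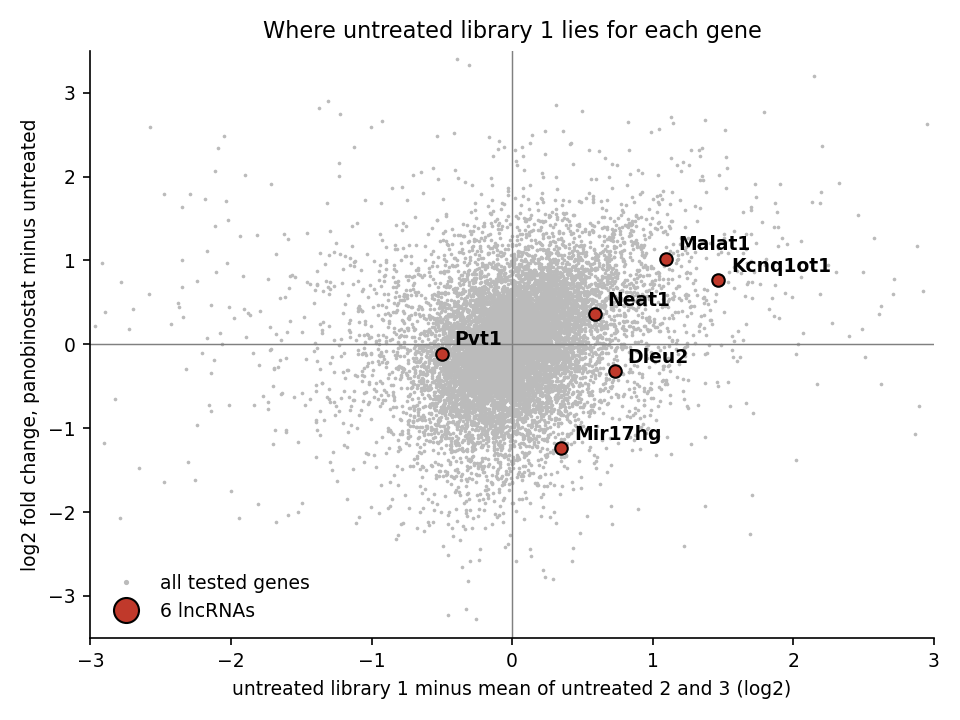
Position of untreated library 1 relative to the mean of untreated libraries 2 and 3 (horizontal axis, log2) against the log2 fold change of panobinostat over untreated (vertical axis). Grey points are all tested genes, of which 52 lie outside the axes, and red points are the 6 lncRNAs. Kcnq1ot1 and Malat1 lie at 1.47 and 1.09, beyond the 95th percentile of all tested genes at 0.81.

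Pairs of Malat1, Neat1 and Kcnq1ot1 were also compared within each library, as a description. Malat1 minus Neat1 was 2.80, 2.36 and 2.64 (log2) in panobinostat libraries 1 to 3, against 2.27, 1.79 and 1.75 in untreated libraries 1 to 3. The groups did not overlap, with means of 2.60 ± 0.22 with panobinostat and 1.94 ± 0.29 untreated (SD, n = 3 each), and the difference was 0.66. The two-sided exact permutation p was 0.1, the smallest that 3 against 3 libraries can give, and 0.3 adjusted over the 3 pairs. Malat1 minus Kcnq1ot1 differed by 0.26 (exact permutation p = 0.2) and Kcnq1ot1 minus Neat1 by 0.40 (exact permutation p = 0.4) between panobinostat and untreated libraries. In both pairs the groups overlapped, and the permutation p adjusted over the 3 pairs was 0.3 and 0.4.

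Pvt1 was the lncRNA with the fewest reads. It is a multi-exon RNA co-amplified with MYC in human tumours and a site of retroviral insertion in mouse T cell lymphoma. The gene (ENSMUSG00000097039.8) lies on chromosome 15 at 62037986 to 62378096, plus strand, with 10 annotated transcripts. Its level was 1.18, 2.05 and 1.19 log2 CPM in panobinostat libraries 1 to 3, against 1.25, 1.57 and 1.94 in untreated libraries 1 to 3. Counted as steps between tied values, with the lowest value taken as 0 reads, these were about 13, 27 and 17 reads with panobinostat and 19, 19 and 25 reads untreated. The groups overlapped fully, with means of 1.48 ± 0.50 with panobinostat and 1.59 ± 0.34 untreated (SD, n = 3 each). Its log2 fold change of -0.11 (SE 0.33, limma adjusted p = 0.815) had a 95% interval of -0.88 to 0.65. Without untreated library 1 it was -0.28 and did not pass (limma adjusted p = 0.563). Its sign turned when panobinostat library 1 (0.037), panobinostat library 3 (0.029) or untreated library 3 (0.065) was left out.

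Myc, a growth-promoting transcription factor gene, starts at -52.6 kb from the start of Pvt1 on the same strand. It was at 0.02, -1.62 and -0.52 log2 CPM in panobinostat libraries 1 to 3, against 1.64, 1.49 and 1.15 in untreated libraries 1 to 3. These were about 6, 2 and 5 reads with panobinostat and 25, 18 and 14 reads untreated, with no overlap. It changed by -2.13 (SE 0.48, 95% interval -3.24 to -1.03, limma adjusted p = 0.0107). The difference between Myc and Pvt1 was not tested.

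**Figure D3:**
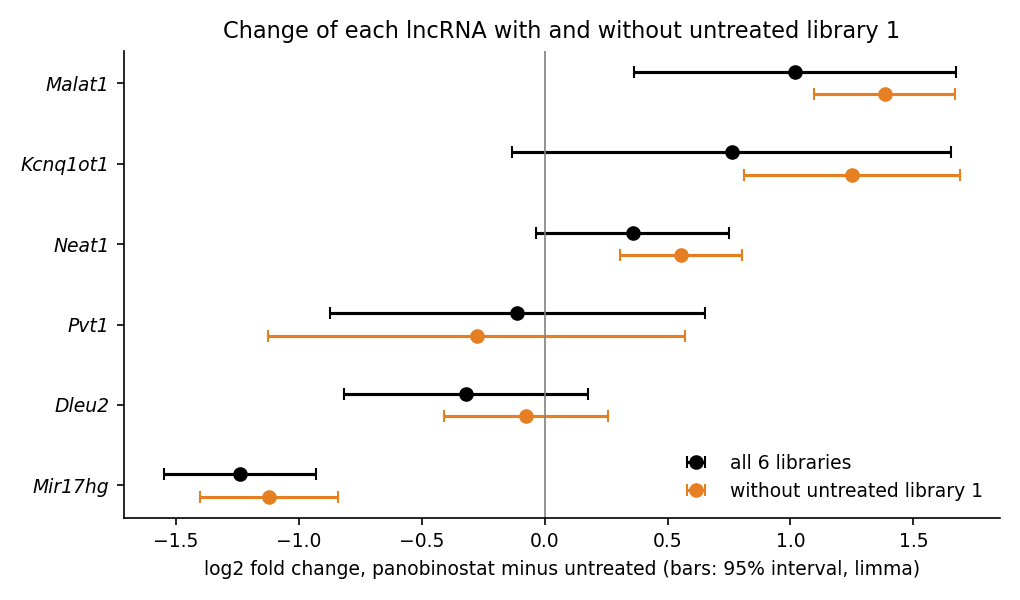
Log2 fold change of panobinostat over untreated (horizontal axis) for each lncRNA with its 95% interval from limma, from all 6 libraries (black) and without untreated library 1 (orange). The intervals of Neat1 and Kcnq1ot1 span 0 with all libraries and lie above 0 without untreated library 1. Those of Dleu2 and Pvt1 span 0 in both fits.

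Genes with a body within 250 kb of a lncRNA moved in both directions. Around Malat1 and Neat1 25 further genes were tested, of which 8 rose and 12 fell. On the side of Neat1 and beyond, Frmd8 (0.56, SE 0.10), the chromatin factor gene Dpf2 (0.77, SE 0.15), Cdc42ep2 (1.41, SE 0.19), the DNA polymerase alpha subunit gene Pola2 (0.84, SE 0.19) and the ubiquitin ligase gene Syvn1 (2.30, SE 0.24) rose. Slc25a45 (-1.68, SE 0.37) and the protease gene Capn1 (-0.87, SE 0.21) fell there, as did Znhit2, Tm7sf2, Vps51 and Cdca5 (between -1.18 and -0.61). For Znhit2 4 of the 6 fits without 1 library gave no call (-0.62 to -0.45 in these). Mrpl49, Fau and Zfpl1 were at 0.39, -0.05 and 0.23 and did not pass.

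On the other side of Malat1 Ehbp1l1 (-0.56, SE 0.11), Pcnx3 (-0.72, SE 0.09), the NF-kB subunit gene Rela (-0.88, SE 0.09), the acetyltransferase gene Kat5 (-1.46, SE 0.10) and Ap5b1 (-1.40, SE 0.32) fell. Sipa1 (0.89, SE 0.11), Sssca1 (0.84, SE 0.12) and Fam89b (0.37, SE 0.12) rose. Sssca1 and Fam89b overlap in the annotation, and Fam89b was not called in 5 of the 6 fits without 1 library (0.28 to 0.40 in these), nor in the fit with the library number as a block (adjusted p = 0.0798). Map3k11 (0.0053) and Rnaseh2c (0.27) did not pass.

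Around Dleu2 8 genes were tested, of which 2 rose and 1 fell. Spryd7 rose (0.97, SE 0.23, adjusted p = 0.014), a call lost without panobinostat library 1 (0.88), and Ebpl fell (-0.92, SE 0.16). The nuclear import gene Kpna3 (0.16) and the potassium channel regulator gene Kcnrg (-0.087), which also overlaps Dleu2 on the opposite strand, did not pass. Around Kcnq1ot1 6 were tested and 2 of them, Nap1l4 and Tspan32, fell. Tssc4 (-0.36), Cd81 (0.22) and R74862 (0.52) did not pass, although Tssc4 passed as lower without untreated library 1 (-0.50, adjusted p = 0.0178). Near Mir17hg no further gene of the table lay within the window.

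**Figure D4:**
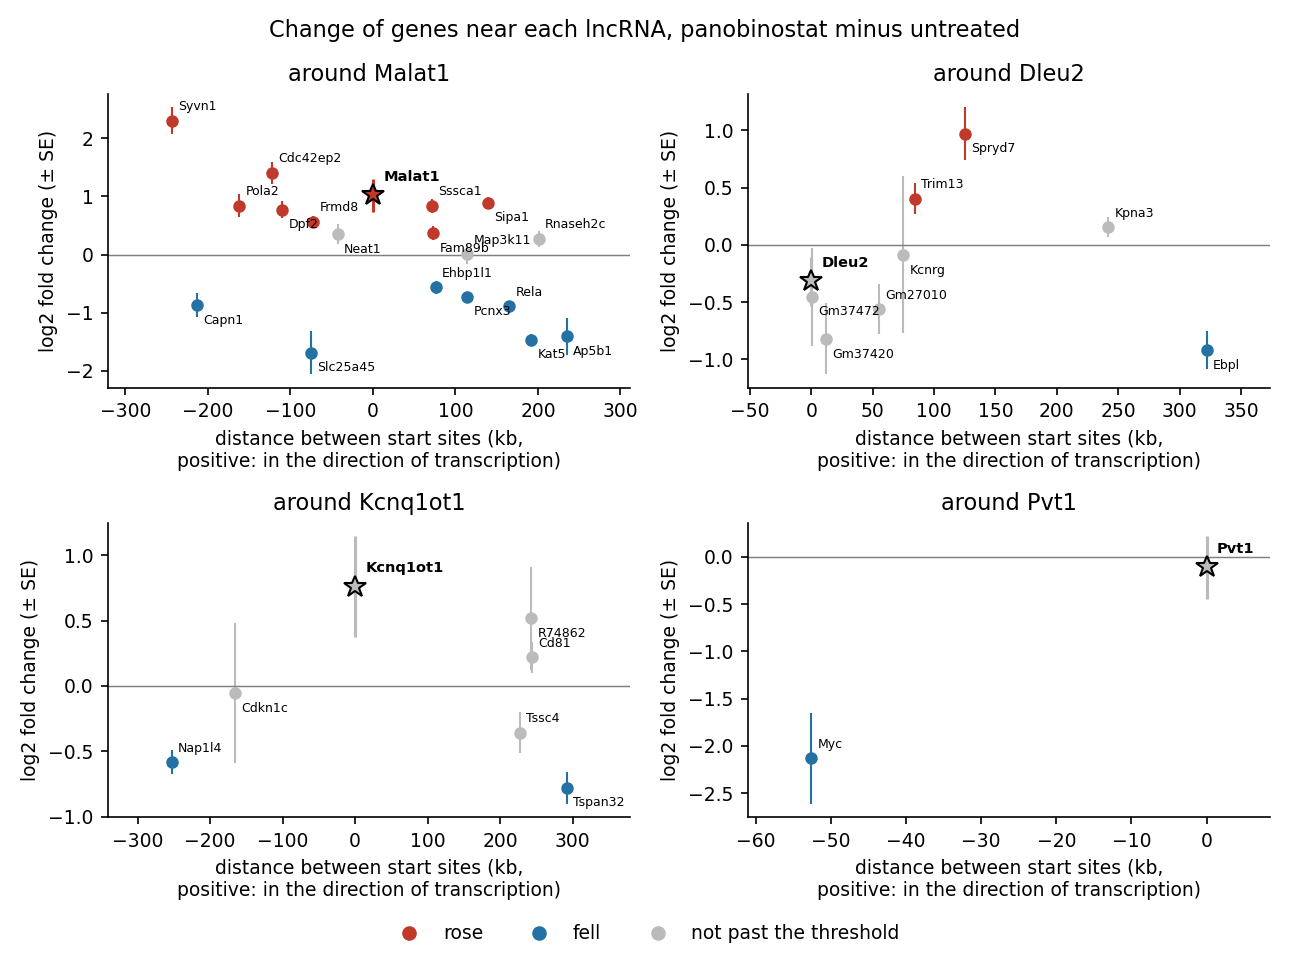
Log2 fold change of panobinostat over untreated (vertical axis, bars ± SE) of tested genes near Malat1, Dleu2, Kcnq1ot1 and Pvt1 against the distance of their start site from that of the lncRNA (horizontal axis, kb). Stars mark the lncRNA named above each panel, and colours give the call. Around Malat1, Syvn1 lies at 2.30 and Slc25a45 at -1.68.

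Other long non-coding RNAs set the scale for these values. Of 62 further named lncRNAs 29 were tested, of which 4 rose and 6 fell (median -0.04). The microRNA host Mir22hg rose and was at 4.88, 4.68 and 4.78 log2 CPM with panobinostat against 3.59, 2.90 and 2.58 untreated (log2 fold change 1.76, SE 0.24, adjusted p = 0.0018). Another host expressed in blood cells, Mir142hg, fell (-0.79, SE 0.14, adjusted p = 0.00486). The snoRNA host Zfas1 rose (0.33, SE 0.06), and Epb41l4aos fell (-0.46, SE 0.08). Over all 397 tested genes annotated as lncRNAs 24.9% were called, with 32 higher and 67 lower. Among 10512 tested protein-coding genes 41.8% were called, with 2216 higher and 2175 lower. The median log2 fold change was -0.07 for the lncRNAs and -0.0040 for the protein-coding genes.

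**Figure D5:**
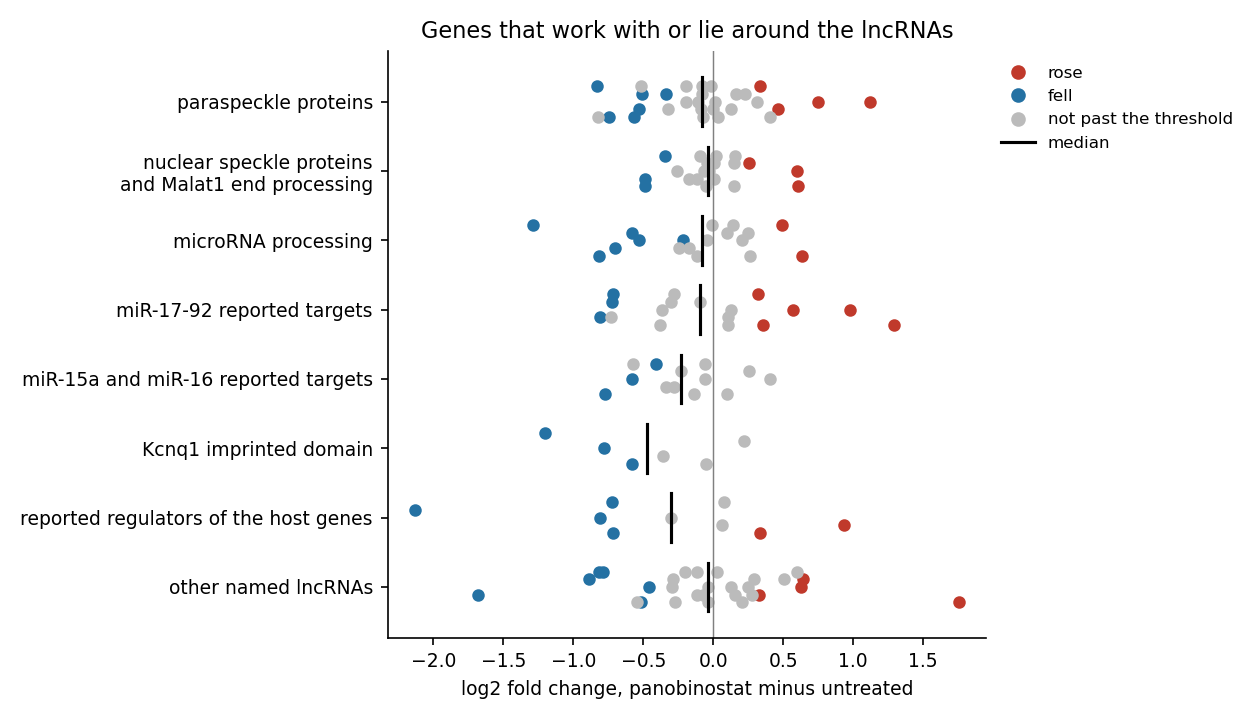
Log2 fold change of panobinostat over untreated (horizontal axis) of each tested gene in 8 lists of genes that work with, act on or lie around the lncRNAs, or are other named lncRNAs. Each point is a gene coloured by its call, and black lines are medians. Rises and falls stand side by side in 6 of the 8 lists, while the lists of miR-15a and miR-16 targets and of the Kcnq1 domain hold 3 falls each and no rise. These 2 lists have 13 and 6 tested genes, and over all tested genes 19.2% rose and 19% fell.

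Genes most like each lncRNA over the 6 libraries were found by Pearson's r of log2 levels, as a description of libraries that also share their group. For Malat1 these were Cnot6, Psmg3 and Suclg2 (r = 0.996 to 0.998), with log2 fold changes of 0.43, 0.19 and 0.61. Cnot6 and Suclg2 were called as higher, but 5 and 4 of the 6 fits without 1 library gave no call (0.35 to 0.47 for Cnot6 and 0.50 to 0.58 for Suclg2 in these). For Neat1 they were the predicted gene Gm37274, Sec14l1 and Cdca7 (r = 0.993 to 0.997), none of which passed. Without untreated library 1 each passed as higher (0.93, 0.36 and 0.73). For Kcnq1ot1 they were Stard3, Rbm6 and Cep350 (r = 0.988 to 0.995), none of which passed. Without untreated library 1 Rbm6 (0.35) and Cep350 (0.49) passed as higher, and Stard3 did not. For Mir17hg they were Arhgap30, Szrd1 and Ddx23 (r = 0.995 to 0.996), with log2 fold changes of -0.46, -0.21 and -0.38. The call of Ddx23 was lost without panobinostat library 2 (-0.36), and Szrd1 did not pass. For Dleu2 they were Ppil2, Cnot3 and Lockd (r = 0.984 to 0.997), and for Pvt1 Tor1b, Alg1 and Cxx1a (r = 0.949 to 0.973), none of which passed.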

How the data were processed

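The 3 panobinostat and 3 untreated QuantSeq 3' mRNA libraries of T-ALL cells were each made from 100 ng of total RNA, per the labels' protocols. Build mm10, limma, Subread 1.5.0, featureCounts, HISAT2 2.1.0 and cutadapt 1.9 are named in the submitters' processing notes (strand setting and annotation: not given in the sources used here). In 1 table, log2 values were deposited. That these are log2 CPM, quantile normalized between libraries, was inferred from linear sums of 994114 to 994182 per library. Such scaling hides a shift of all genes one way. Library numbers are those of the column names, matched to the sample titles by the S number, which no other sample has. The titles themselves give every library the number 1.

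Rows with a mean log2 of at least 0 were tested (631 left out) with limma 3.58.1 in R 4.3.3 (lmFit, eBayes with trend, no pseudocount) and Benjamini-Hochberg adjustment over all 12554 genes at 0.05. The fit was also run on simulated data with independent noise in each gene and library, which cannot show the effect of a library that stands apart. Values after ± are SD, and intervals are 95% from limma. Depth was estimated from the level 200 steps of distinct values above the lowest, and without molecular identifiers reads are not independent molecules. GENCODE M21 and RefSeq (GRCm38.p6) gave positions and sequences. The members and gene lists were chosen with earlier results of these data known. Beside those said to be picked out later, named genes were the members, up to 4 per list by smallest adjusted p, tested genes within 250 kb, the 3 most alike by Pearson's r per member among genes with a mean level of at least 4.16, Myc and Notch1. A gene near Malat1 counts among those tested but is not reported here. Alternatives were other filters, scalings, spread models, sample weights, a pseudocount, a threshold of 0.01, a library block and each library left out.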

Additional observations from a re-analysis of the deposited data

How the results depend on the processing

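Mir17hg kept its direction and its call in all 16 alternatives (-1.35 to -1.12 with 1 library left out). Malat1 stayed positive in all 16 and lost its call with no trend (1.02), a robust spread (1.02), a threshold of 0.01 (1.02, adjusted p = 0.0245) and 4 omissions of 1 library. Sample weights, which were 0.406, 0.649 and 2.48 for untreated libraries 1 to 3, called Neat1 (0.46) and Kcnq1ot1 (1.02). The weighted untreated level thus rests mostly on untreated library 3. Leaving out untreated library 1 also called both (0.55 and 1.25). With 1 library left out the values ran from 0.81 to 1.38 for Malat1, 0.22 to 0.55 for Neat1, 0.44 to 1.25 for Kcnq1ot1, -0.53 to -0.08 for Dleu2 and -0.40 to 0.065 for Pvt1. The number of the 6 lncRNAs called was 2, against 1 with no trend, a robust spread or a threshold of 0.01, 4 with sample weights, and 1 to 4 with 1 library left out. The number of genes called was 4806, against 2513 at 0.01, 6107 with sample weights and 3299 to 5233 with 1 library left out. The library number as a replicate block gave 4148 genes and 2 lncRNAs, with 1.02 for Malat1 and -1.24 for Mir17hg. It ended 3 calls among the named genes (Trim13, Fam89b and Hba-a1). Deviations of same-numbered libraries correlated at r = -0.0444, 0.104 and -0.0108, and those of differently numbered libraries at -0.158 to 0.152. With 3 libraries per group these values cannot decide whether libraries were paired. With a mean log2 of at least 2 Pvt1 was not tested.

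Among 98 further named genes 68 were called, of which 55 kept the call with each library left out and 0 turned sign. Of 30 that did not pass 12 passed in at least 1 alternative, Tssc4, Ccnd3 and Psmg3 (0.27) among them without untreated library 1, and 7 turned sign. With sample weights the sign turned for Alg1 (-0.063), Cdkn1c (0.086), Kcnrg (0.032) and Map3k11 (-0.12), and with a pseudocount of 1 Kcnrg (0.059). With 1 library left out the range was -0.073 to 0.084 for Alg1, -0.33 to 0.37 for Cdkn1c, -0.22 to 0.71 for Kcnrg, -0.11 to 0.12 for Map3k11, -0.21 to 0.11 for Cxx1a, -0.13 to 0.045 for Tor1b and -0.75 to 0.059 for Gm37472. The causes were not tested. Counts of 2 to 27 reads per library limit the precision for Pvt1 and Myc.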
